A study of Rattus norvegicus with 6 samples.

Results

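The solute carrier families Slc1, Slc3, Slc6, Slc7, Slc36, Slc38 and Slc43 hold most of the proteins that carry amino acids across cell membranes, and they were followed here in the ileum, where the small intestine ends, after duodenum-jejunum bypass (DJB). The members are all genes whose single annotated symbol begins with one of these family names followed by the letter a and a number, which gave 55 of the 14506 genes tested. They fall into 7 genes of Slc1, 2 of Slc3, 16 of Slc6, 15 of Slc7, 4 of Slc36, 8 of Slc38 and 3 of Slc43. The rule also takes in Slc7a6os, named for lying opposite Slc7a6, which is no transporter. It takes in carriers of taurine, creatine and neurotransmitters of the Slc6 family as well. Each member had 1 row on the array, so no choice between rows was needed.

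All 6 rats were Zucker fa/fa, a strain that becomes obese because its leptin receptor is defective, were 20 weeks old and were killed 14 days after surgery. In 3 rats the start of the duodenum was joined to the distal jejunum so that food skipped the gut between them, while bile and pancreatic juice re-entered further down. In 3 sham rats the gut was cut and sewn back in its normal course. Ileum RNA of each rat went to 1 Affymetrix whole-transcript array, and the deposited values are log2 levels after RMA. The sex of the rats and any batch are not given in the sources used here, and the labels call the rats of a group biological replicates.

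The median of DJB 1 was 6.19, and the medians of the other arrays lay between 6.08 and 6.11. Fabp6, the bile acid binding protein that marks ileal enterocytes, averaged 13.88 in DJB and 13.57 in sham rats, and all 9 enterocyte markers lay above 6. All differences are log2 values of DJB minus sham, with the standard error (SE) of a limma fit over all 14506 genes, from 3 arrays per group. A gene is said to have risen or fallen where its Benjamini-Hochberg adjusted p over all genes was under 0.05. The number of arrays limits the precision. Levels of different rows are not read as relative amounts of RNA, since rows differ in their probes. Sums over marker rows are compared only between arrays.

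Free amino acids enter enterocytes from the gut lumen through carriers of the brush border and leave towards the blood through carriers of the basolateral membrane. Digested protein also enters as di- and tripeptides, through the brush border carrier Slc15a1, which is not a member. Most entry carriers draw on the sodium or proton gradient. Many carriers of the Slc7 family work only as a pair, in which an Slc3 glycoprotein brings the Slc7 transport subunit to the membrane: Slc3a1 pairs with Slc7a9 at the brush border, and Slc3a2 pairs with Slc7a5, Slc7a6, Slc7a7 or Slc7a8, among others, mainly at the basolateral side. In bulk tissue, fewer cells of a type and less RNA per cell cannot be told apart.

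After DJB, 2 of the 55 members fell and 0 rose. The members that fell were Slc36a1, the proton-coupled carrier of small neutral amino acids, 2.40-fold lower, and Slc7a8, the transport subunit of a basolateral exchanger of neutral amino acids, 2.15-fold lower. The main carriers of neutral amino acids, cystine and glutamate at the brush border, Slc6a19, the pair Slc3a1 and Slc7a9, and Slc1a1, had differences of -0.04 to 0.20 that did not pass. Over all genes 0.772% were called, 0.393% as rises and 0.379% as falls, against 3.64% of the members.

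At an unadjusted p under 0.05, 11 members differed, 6 with higher and 5 with lower values after DJB. These are 20.0% of the members, where 14.3% of all genes had such a p (9.82% higher, 4.45% lower). The median difference of the members was 0.10, beside 0.05 over all genes tested. Without DJB 1, the array with the highest median, these were 0.07 and 0.01. Differences were small in most members, 47 of 55 lying within 0.3 of 0. The 3 values of one group lay wholly above or below those of the other in 13 members, or 23.6%, where 21.1% of all genes did so.

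Dim members weigh on the direction of these counts. A mean level under 6 was found for 26 members, beside 37.4% of all genes tested. Nearest to that limit were Slc38a7 at 5.90 and Slc1a2 at 5.85 below it, and Slc6a9 at 6.28 and Slc1a4 at 6.39 above it. Of the 26 dim members, 23 had positive differences and 0 passed the test, with a median difference of 0.13. Of the 29 members at 6 or above, 16 had positive and 13 negative differences, with a median of 0.05. Among all genes under 6, 66.0% had positive differences. Fold changes of dim rows can be understated, and a row near background does not show that the gene is transcribed.

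**Figure D1:**
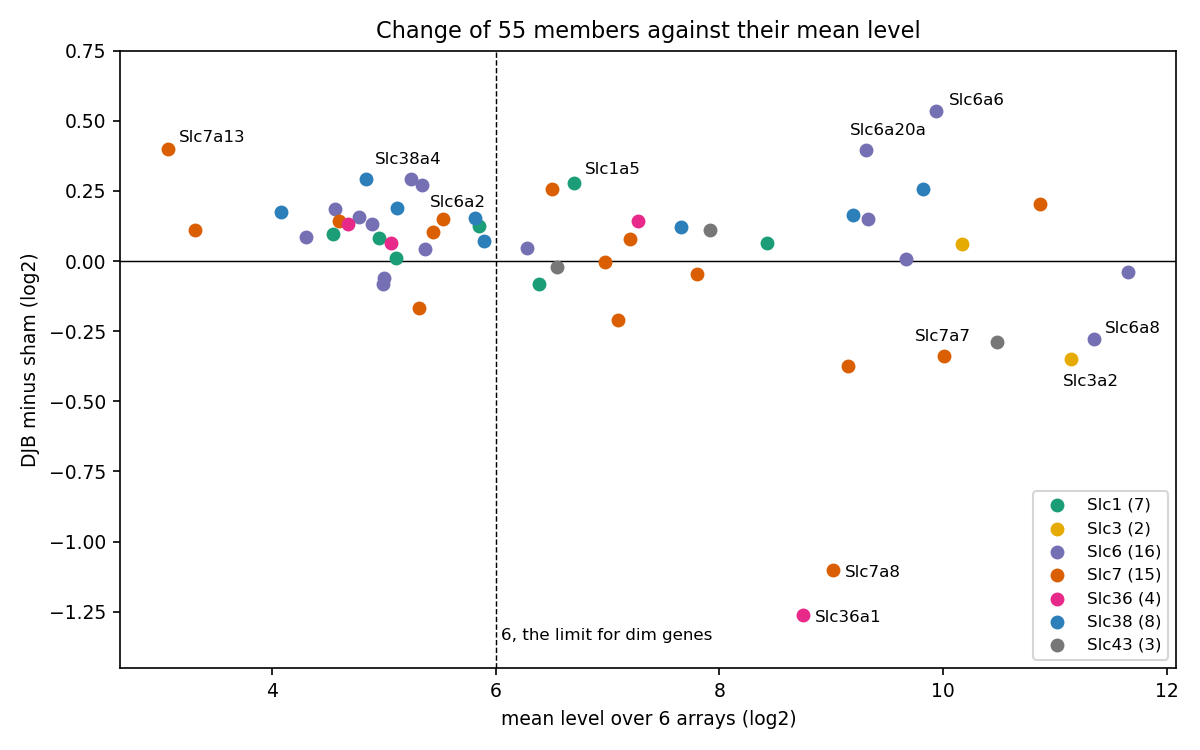
Difference between DJB and sham rats (log2, vertical axis) against the mean level over the 6 arrays (log2, horizontal axis) for the 55 members, with 1 point per gene coloured by subfamily, the number of genes of each subfamily in the legend, and names for the 11 genes with an unadjusted p under 0.05. Slc36a1 and Slc7a8 lie apart from the other members at -1.26 and -1.10, and most points left of the dashed line at 6 lie slightly above 0.

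The windows around the annotated starts of the carriers that fell and of Slc6a19, the main brush border carrier of neutral amino acids, whose difference was near 0, are shown for the motifs they hold. Each runs from 250 bases before to 50 bases after the start on the strand of the gene, from RefSeq on the build GRCr8, and capitals mark the motif matches. Slc36a1 lies at chr10:39824785-39825084 on the plus strand, Slc7a8 at chr15:32212666-32212965 on the minus strand and Slc6a19 at chr1:31414494-31414793 on the plus strand.
Slc36a1: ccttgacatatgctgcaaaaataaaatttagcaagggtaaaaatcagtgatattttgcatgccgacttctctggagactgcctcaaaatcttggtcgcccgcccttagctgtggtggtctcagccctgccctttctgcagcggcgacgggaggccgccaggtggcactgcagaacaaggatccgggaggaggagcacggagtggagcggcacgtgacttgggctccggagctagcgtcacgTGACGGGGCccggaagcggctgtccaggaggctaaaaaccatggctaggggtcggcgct
Slc7a8: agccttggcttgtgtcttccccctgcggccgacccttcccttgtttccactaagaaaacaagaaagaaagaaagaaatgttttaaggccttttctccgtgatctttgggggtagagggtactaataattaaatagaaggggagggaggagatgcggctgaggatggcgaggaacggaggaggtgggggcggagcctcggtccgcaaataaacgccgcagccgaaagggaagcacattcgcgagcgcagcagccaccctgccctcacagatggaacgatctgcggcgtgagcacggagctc
Slc6a19: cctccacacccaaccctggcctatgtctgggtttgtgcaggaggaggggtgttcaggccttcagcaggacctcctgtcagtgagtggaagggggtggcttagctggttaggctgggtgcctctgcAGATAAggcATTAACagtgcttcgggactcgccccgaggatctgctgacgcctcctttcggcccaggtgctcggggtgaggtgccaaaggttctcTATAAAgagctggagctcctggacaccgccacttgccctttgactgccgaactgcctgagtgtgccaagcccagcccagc

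Of the members, 43 had such a window. Both strands were searched for 7 motifs of factors known in the intestine or in the amino acid and oxidative stress responses: AGATAA for GATA factors, GTTAAT for HNF1, CAAAGTCCA for HNF4, TTTATG for CDX factors, TTNCATCA for ATF4, TGACNNNGC for NRF2, and TATAAA, the TATA box. The Slc36a1 window held 1 match, TGACNNNGC, starting at base -9 from the start, and the Slc7a8 window held none of the 7. The Slc6a19 window held AGATAA from base -125, GTTAAT on the opposite strand from base -116 and TATAAA from base -30, and none of these matches overlapped. Among the 43 windows AGATAA was found in 1, GTTAAT in 4, CAAAGTCCA in 1, TTTATG in 3, TTNCATCA in 3, TGACNNNGC in 7 and TATAAA in 5. Of all 33469 windows of that length, 11.6% held AGATAA, 7.45% GTTAAT, 0.391% CAAAGTCCA, 12.7% TTTATG, 3.98% TTNCATCA, 12.1% TGACNNNGC and 14.2% TATAAA. A match describes these letters only, and no factor binding was measured.

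At the brush border, the carriers listed for uptake were 9 members, all at 6 or above. Of these 1 fell, 0 rose, 7 had positive and 2 negative differences, and the median difference was 0.15. Among all genes at 6 or above, 1.19% were called and 59.2% had positive differences, with a median of 0.04. The lists were chosen with earlier results of these data known, and no list was tested. Slc36a1, which takes up glycine, alanine and proline with protons and also sits in lysosomes, had levels of 8.56, 7.72 and 8.06 in DJB rats 1 to 3, against 9.30, 9.57 and 9.26 in sham rats 1 to 3. Every DJB value lay below every sham value, and DJB 2 was the lowest. The difference was -1.26 ± 0.19 (SE), with a limma adjusted p of 0.0260. The call held when DJB 1 was left out (-1.49, adjusted p = 0.00443) and was lost without any other single array (adjusted p from 0.0660 to 0.101). It was also lost when all 29214 rows were tested (adjusted p = 0.0590).

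The neighbours of Slc36a1 on chromosome 10 are its relatives Slc36a2 and Slc36a3, with no other coding gene between them. Both were dim, at 5.09 in DJB and 5.03 in sham rats for Slc36a2 and at 4.74 in DJB and 4.61 in sham rats for Slc36a3, and their differences of 0.07 ± 0.15 and 0.13 ± 0.10 did not pass. Slc36a4, the fourth member of that subfamily, differed by 0.14 ± 0.12 and did not pass. Of the 4 Slc36 genes, 1 was called, where 0.772% of all genes were.

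Slc6a6, the sodium-coupled taurine carrier, showed the largest positive difference of any member. It had levels of 10.35, 10.06 and 10.20 in DJB rats, against 9.73, 9.55 and 9.73 in sham rats. Every DJB value lay above every sham value. The difference of 0.54 ± 0.11 did not pass over all genes (limma adjusted p = 0.0750), but it did when genes with a mean under 6 were left out of the fit (adjusted p = 0.0332) or when eBayes followed an intensity trend (adjusted p = 0.0188).

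Slc6a20a, which carries proline and other imino acids, had levels of 9.39, 9.61 and 9.53 in DJB rats, against 9.17, 8.86 and 9.32 in sham rats. The groups did not overlap, with sham 2 lowest, and the difference of 0.40 ± 0.13 did not pass (limma adjusted p = 0.227). Slc1a5, an exchanger of glutamine and other neutral amino acids, had levels of 6.94, 6.79 and 6.80 in DJB rats, against 6.49, 6.58 and 6.62 in sham rats. These groups did not overlap either, and the difference of 0.28 ± 0.09 did not pass (limma adjusted p = 0.235).

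Slc6a19, whose loss in people causes Hartnup disorder, had levels of 11.35, 11.82 and 11.75 in DJB rats, against 11.45, 11.63 and 11.95 in sham rats. The groups overlapped, and the difference was -0.04 ± 0.16, with a 95% interval from -0.41 to 0.33. In the pair whose loss causes cystinuria, the transport subunit Slc7a9 differed by 0.20 ± 0.10, with DJB values of 10.88 to 11.11 above sham values of 10.69 to 10.81, and its partner Slc3a1 by 0.06 ± 0.15, and neither passed. Slc1a1, the glutamate and aspartate carrier of the brush border, differed by 0.06 ± 0.12 with an interval from -0.22 to 0.34. Slc6a14, a broad carrier of neutral and basic amino acids, differed by 0.15 ± 0.11. The 95% intervals of Slc6a19, Slc7a9, Slc3a1, Slc1a1 and Slc6a14 ran between -0.41 and 0.43, so differences of that size in these genes may have been missed with 6 arrays.

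On the basolateral side, 8 members were listed, all at 6 or above. Of these 1 fell, 0 rose, 3 had positive and 5 negative differences, and the median difference was -0.15. The shares over all genes at 6 or above were 1.19% called and 59.2% with positive differences, and this list was not tested either. Slc7a8 had levels of 8.70, 7.92 and 8.76 in DJB rats, against 9.62, 9.53 and 9.54 in sham rats. Every DJB value lay below every sham value, and DJB 2 stood well below the other two. The difference was -1.10 ± 0.20, with a limma adjusted p of 0.0488, just under the threshold. Without DJB 2 the difference was -0.83 and the call held (adjusted p = 0.0291), while without any other single array it was lost (adjusted p from 0.0517 to 0.167). With all rows tested the adjusted p was 0.0970.

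Slc3a2, the glycoprotein that carries Slc7a8 and its relatives to the membrane, had levels of 11.07, 10.89 and 10.94 in DJB rats, against 11.28, 11.31 and 11.37 in sham rats. Its groups did not overlap, but the difference of -0.35 ± 0.09 did not pass (limma adjusted p = 0.155), except under the intensity trend (adjusted p = 0.0457). Slc7a7, its partner for the export of lysine and arginine, had levels of 9.83, 9.74 and 9.95 in DJB rats, against 10.15, 10.15 and 10.24 in sham rats. The groups were again apart, and the difference of -0.34 ± 0.10 did not pass (limma adjusted p = 0.172).

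Other partners of Slc3a2 had differences on both sides of 0. Slc7a5, the exchanger of large neutral amino acids found in dividing cells, differed by 0.08 ± 0.11 and Slc7a6, a relative of Slc7a7, by 0.26 ± 0.14, and neither passed. Slc7a6os, next to Slc7a6 on chromosome 19, differed by -0.21 ± 0.11 and did not pass. Slc7a11, the cystine and glutamate exchanger that also pairs with Slc3a2, was dim at 5.23 in DJB and 5.39 in sham rats and differed by -0.17 ± 0.13. Slc7a10, a further partner, was dim and differed by 0.15 ± 0.13. The differences of these 6 partners thus ran from -1.10 in Slc7a8 to 0.26 in Slc7a6.

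Slc43a2, a facilitated carrier through which branched-chain amino acids and phenylalanine leave the enterocyte, had levels of 10.31, 10.06 and 10.66 in DJB rats, against 10.57, 10.58 and 10.73 in sham rats. DJB 3 lay among the sham rats, and the difference of -0.29 ± 0.15 did not pass. Its relatives Slc43a1 and Slc43a3 differed by -0.02 ± 0.11 and 0.11 ± 0.16. Slc16a10, the basolateral carrier of aromatic amino acids, belongs to another family and was taken for comparison. It had levels of 9.02, 8.76 and 9.30 in DJB rats, against 9.54, 9.72 and 9.76 in sham rats, and its difference of -0.65 ± 0.14 did not pass (limma adjusted p = 0.0953).

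DJB 2 was the lowest DJB array in 4 of the 5 members that were lower at an unadjusted p under 0.05, namely Slc36a1, Slc7a8, Slc3a2 and Slc7a7, and in the remaining one, Slc6a8, it was DJB 3. Over the 29 members at 6 or above, DJB 1 was the lowest DJB array in 7, DJB 2 in 11 and DJB 3 in 11. DJB 1 was the highest DJB array in 5 of the 6 members that were higher at an unadjusted p under 0.05. Over the 29 members at 6 or above, DJB 1 was highest in 15, DJB 2 in 8 and DJB 3 in 6.

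Markers of several cell types differed at an unadjusted p under 0.05 between the same groups, while 0 were called in any of the lists. Of the 9 enterocyte markers 3 had positive and 6 negative differences. Among these, the lipoprotein gene Apoa4 differed by -0.91 ± 0.17, just outside the threshold (limma adjusted p = 0.0511), Apob by -0.37 ± 0.13 and Fabp6 by 0.30 ± 0.10, each with groups that did not overlap. Their summed level spanned 15.84 to 15.86 (log2) in DJB rats and 15.75 to 15.98 in sham rats. Of the 4 goblet cell markers 3 were lower, with Agr2 at -0.32 ± 0.11 and Spdef at -0.25 ± 0.10. The sum of the 4 spanned 13.67 to 13.69 in DJB and 13.67 to 13.86 in sham rats. Their mean log2 level did not overlap, at 10.97 to 11.02 in DJB and 11.06 to 11.22 in sham rats. Of 5 Paneth cell markers 3 were higher and 2 lower, with Defa6 at -0.68 ± 0.18 and a sum of 13.02 to 13.31 in DJB and 13.10 to 13.56 in sham rats. Of 7 enteroendocrine markers 4 were higher and 3 lower, with Cck at -0.33 ± 0.11 and a sum of 11.06 to 11.48 in DJB and 11.04 to 11.44 in sham rats.

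Of the 8 macrophage markers 6 were higher, with Cd14 at 0.54 ± 0.12, Cd163 at 0.45 ± 0.14, Csf1r at 0.35 ± 0.11 and Cd68 at 0.27 ± 0.10, each with groups that did not overlap. Their mean log2 level was 8.46 to 8.65 in DJB and 8.31 to 8.44 in sham rats, while their sum, to which the brightest row adds most, was 12.62 to 12.92 in DJB and 12.79 to 13.02 in sham rats. Of 6 fibroblast markers 4 were higher, namely Col1a1 at 0.71 ± 0.21, Lum at 0.56 ± 0.18, Col3a1 at 0.52 ± 0.16 and Col1a2 at 0.52 ± 0.16, and the sum spanned 11.86 to 12.42 in DJB and 11.67 to 12.07 in sham rats. All 7 T and NK cell markers were higher, from 0.02 in Cd3e to 1.21 ± 0.43 in Gzmb, with a median of 0.23. Gzmb was highest in DJB 3, at 10.33, beside 8.67 in DJB 1 and 8.51 in DJB 2. The sum of these 7 markers was 11.36 to 12.17 in DJB and 11.22 to 11.82 in sham rats. All 7 smooth muscle markers were higher too, from 0.005 in Myh11 to 0.36 in Cnn1, with Acta2 at 0.25 ± 0.10. Their sum was 13.60 to 13.85 in DJB and 13.26 to 13.73 in sham rats. All 4 B and plasma cell markers were lower, from -0.18 in Cd79b to -1.08 ± 0.66 in Cr2, with a median of -0.50. Their mean log2 level was 7.88, 6.41 and 7.23 in DJB rats 1 to 3, against 7.18 to 8.14 in sham rats. The sum of these 4 was 10.92 to 11.28 in DJB and 11.12 to 11.62 in sham rats. None of them had an unadjusted p under 0.05, and likewise none of the 5 glial, 6 exocrine pancreas or 4 endothelial markers had such a p. The haemoglobin gene Hbb differed by -0.998 ± 0.27 with overlapping groups. None of the marker differences named passed, and the part of these cells in the differences of the members was not tested.

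**Figure D2:**
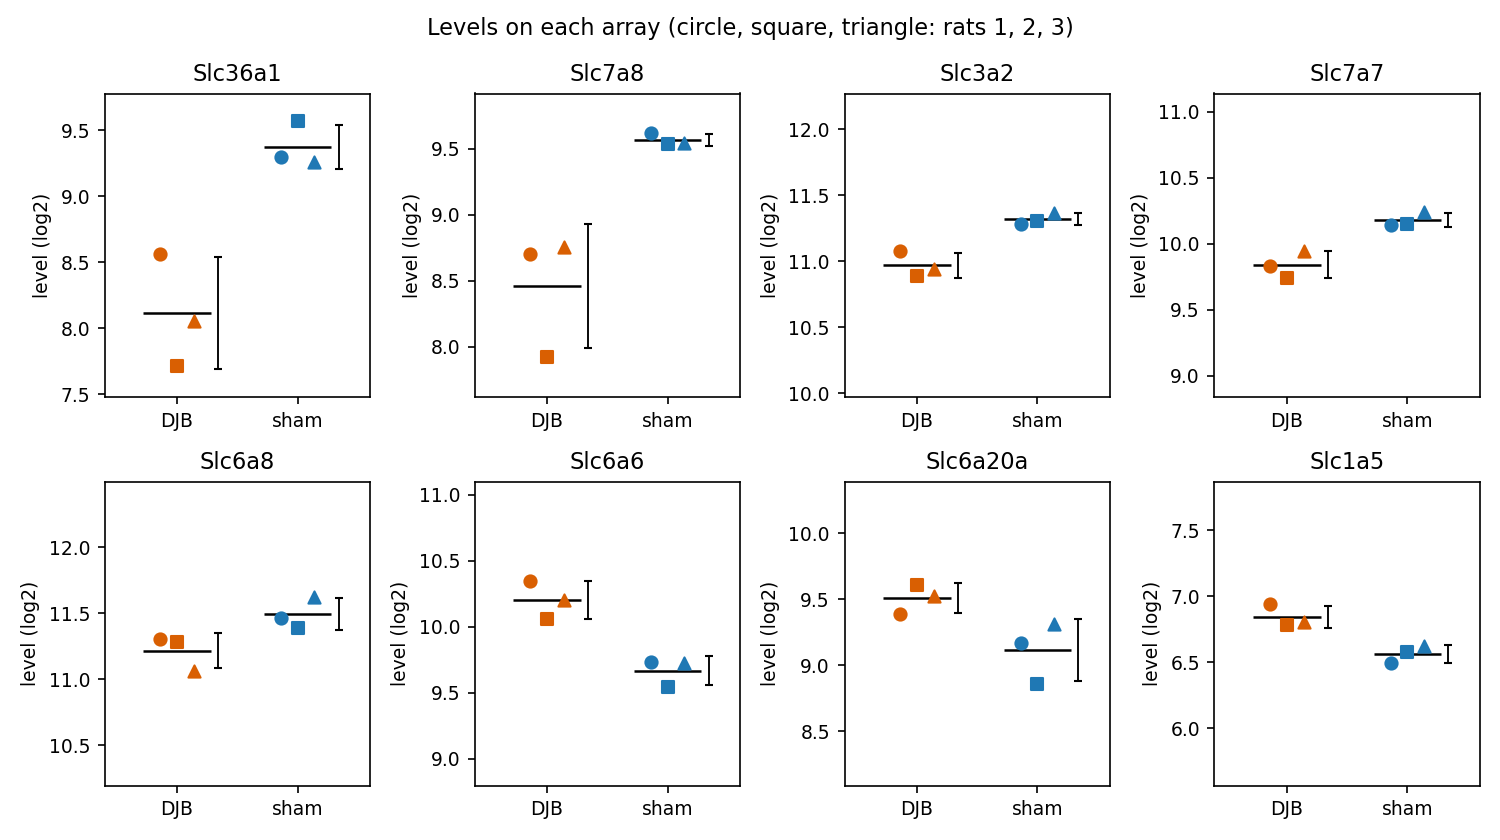
Level (log2) of 8 members on each array, DJB at left and sham at right in each panel, with 1 symbol per rat, a line at the group mean and a bar beside it of 1 SD either way (n = 3 per group), and every axis covering the same number of log2 units. The 8 are the members at 6 or above with an unadjusted p under 0.05, a choice that favours groups that do not overlap. In all 8 panels the groups do not overlap, where 26.7% of all genes at 6 or above did so. The gap is widest for Slc36a1 and Slc7a8, where the DJB rats also spread most.

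The remaining Slc6 genes held no call. Slc6a8, the creatine carrier, had levels of 11.30, 11.28 and 11.06 in DJB rats, against 11.46, 11.39 and 11.63 in sham rats. The groups did not overlap, and the difference of -0.28 ± 0.11 did not pass (limma adjusted p = 0.303). Slc6a4, the serotonin carrier, which gut epithelium uses to clear serotonin, differed by 0.01 ± 0.12, and Slc6a9, a glycine carrier, by 0.05 ± 0.10. The other 9 of the 16 Slc6 genes were dim. Among these, Slc6a2, the noradrenaline carrier of sympathetic nerves, averaged 5.47 in DJB and 5.20 in sham rats, a difference of 0.27 ± 0.11 that did not pass. Of 8 enteric neuron markers 7 were lower and 0 were called, with Stmn2 at -0.44 ± 0.16, and their sum spanned 8.87 to 9.25 in DJB and 9.06 to 9.36 in sham rats.

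All 8 genes of Slc38, the sodium-coupled carriers of glutamine and other neutral amino acids, had positive differences, where 61.7% of all genes did, but 0 passed. The differences lay between 0.07 and 0.29 with a median of 0.17, and 5 of the 8 genes were dim. Slc38a2, the member that cells induce when amino acids are scarce, had levels of 10.09, 9.92 and 9.82 in DJB rats, against 9.86, 9.56 and 9.65 in sham rats. The groups overlapped at DJB 3 and sham 1, and the difference was 0.26 ± 0.12 (limma adjusted p = 0.358). Its chromosomal neighbour Slc38a1 differed by 0.16 ± 0.09, with DJB values of 9.24 to 9.31 above sham values of 9.10 to 9.14. The next gene along, Slc38a4, was dim, with a difference of 0.29 ± 0.13. Slc38a9, a lysosomal protein that senses arginine for the growth regulator mTORC1, differed by 0.12 ± 0.10.

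In Slc1, 6 of 7 genes had positive differences and 0 passed, and 4 of the 7 were dim, among them the glutamate carriers Slc1a2 and Slc1a3 of glial cells, at 0.12 ± 0.12 and 0.10 ± 0.11. Slc1a4, an exchanger of serine, alanine and cysteine, differed by -0.08 ± 0.11. In Slc7, 8 of 15 genes had positive and 7 negative differences. Slc7a13, a carrier known from the kidney, was dim at 3.27 in DJB and 2.87 in sham rats, and its difference of 0.40 ± 0.13 did not pass. Slc7a1, the main carrier of basic amino acids into most cells, differed by -0.05 ± 0.10, and Slc7a4 by -0.0023 ± 0.09. Slc7a15, a carrier known from rodents, varied most between rats of a group, with levels of 9.11, 9.68 and 8.09 in DJB rats, against 8.77, 9.52 and 9.72 in sham rats. Its difference of -0.37 ± 0.37 did not pass, and it was 0.06 without DJB 3.

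**Figure D3:**
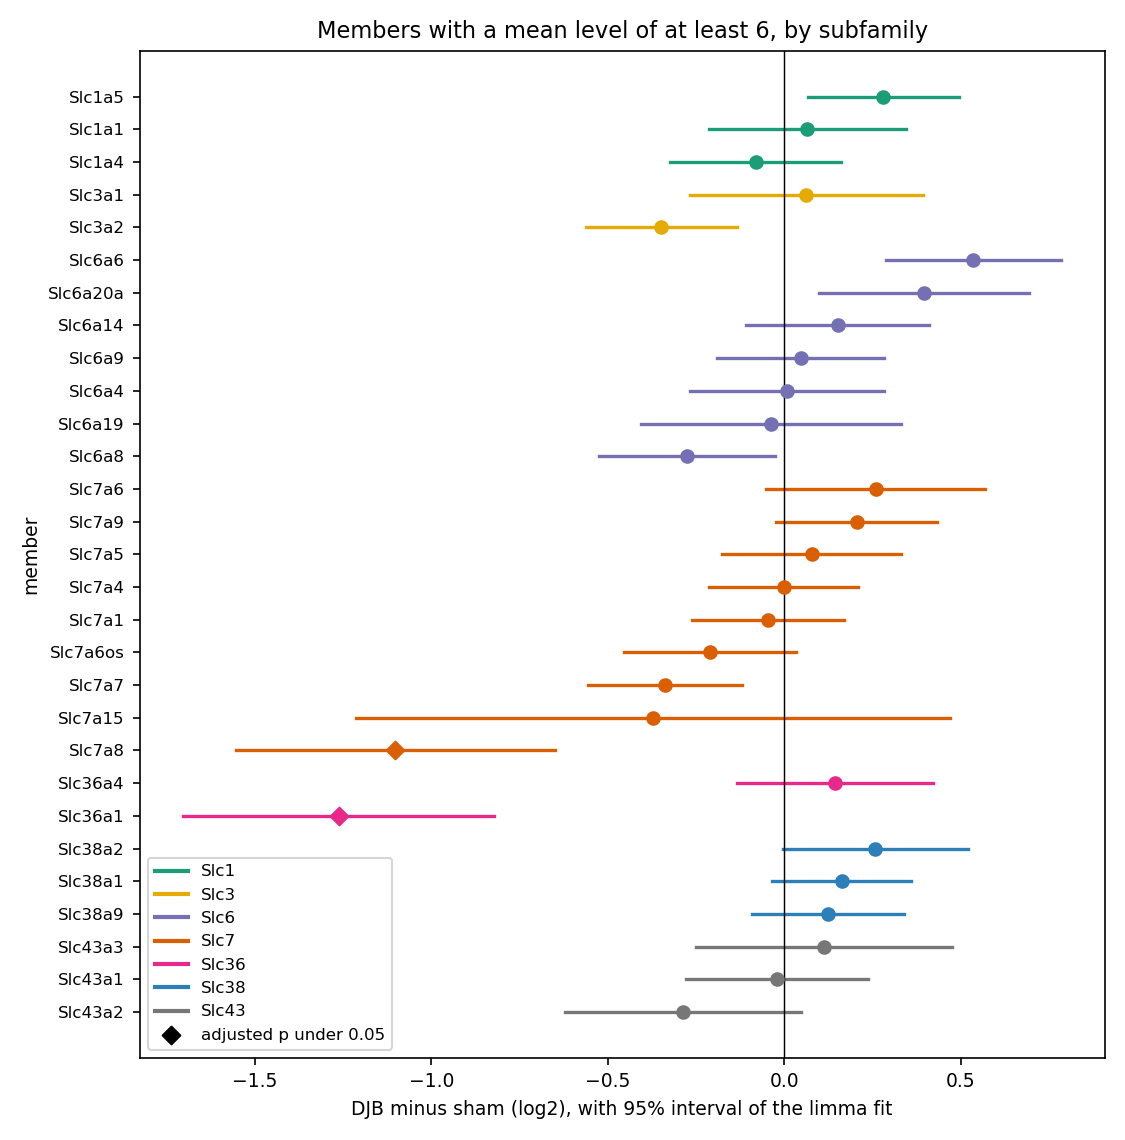
Difference between DJB and sham rats (log2, horizontal axis) with its 95% interval from the limma fit for the 29 members with a mean level of at least 6, coloured by subfamily and sorted within it, with diamonds for the 2 genes called. The intervals of Slc36a1 and Slc7a8 end at -0.82 and -0.65, and Slc7a15 has the widest interval, from -1.22 to 0.47.

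Several members are known targets of ATF4, the transcription factor that cells switch on when amino acids run short. Of 9 such members 0 were called, 5 had positive and 4 negative differences, and the median difference was 0.05. Among 23 measured genes of the amino acid response that are not carriers, 0 were called, 4 were higher and 2 lower at an unadjusted p under 0.05, and the median difference was 0.06. Atf4 itself differed by -0.02 ± 0.14. The genes of lowest p lay on both sides of 0. The serine synthesis gene Psat1 differed by 0.59 ± 0.17 and the mitochondrial folate enzyme gene Mthfd2 by 0.42 ± 0.11, while the stress-induced genes Ddit3 and Nupr1 differed by -0.35 ± 0.10 and -0.35 ± 0.11. None of these 4 passed (limma adjusted p from 0.152 to 0.200).

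Other carriers and enzymes of amino acid handling held no call either. Slc15a1, the brush border carrier of di- and tripeptides, differed by -0.30 ± 0.12 (limma adjusted p = 0.295), with DJB levels of 11.85, 12.03 and 11.94, against sham levels of 12.10, 12.17 and 12.44. The mitochondrial glutamate carrier Slc25a22 differed by 0.52 ± 0.14 (limma adjusted p = 0.144). Slc17a8, a vesicular glutamate carrier, was dim and differed by 0.30 ± 0.10 (limma adjusted p = 0.202). Of 12 measured genes of amino acid breakdown and the urea cycle, 0 were called, 5 had positive and 7 negative differences, and the median difference was -0.05. The lowest p values among them were those of the arginase gene Arg2 at -0.37 ± 0.10 and of Otc, which makes citrulline in the gut, at -0.38 ± 0.12, and neither passed.

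Leaving out single arrays ended most of the calls. The difference of Slc36a1 lay between -1.49 and -1.07 and that of Slc7a8 between -1.25 and -0.83 over the 6 such fits. Those of Slc6a6 lay between 0.46 and 0.61 and those of Slc3a2 between -0.40 and -0.31, with no call in any of them. Exact permutation tests of 3 against 3 rats cannot give a two-sided p under 0.1. Groups that do not overlap always give that value, so it adds nothing to the count of 13 such members.

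**Figure D4:**
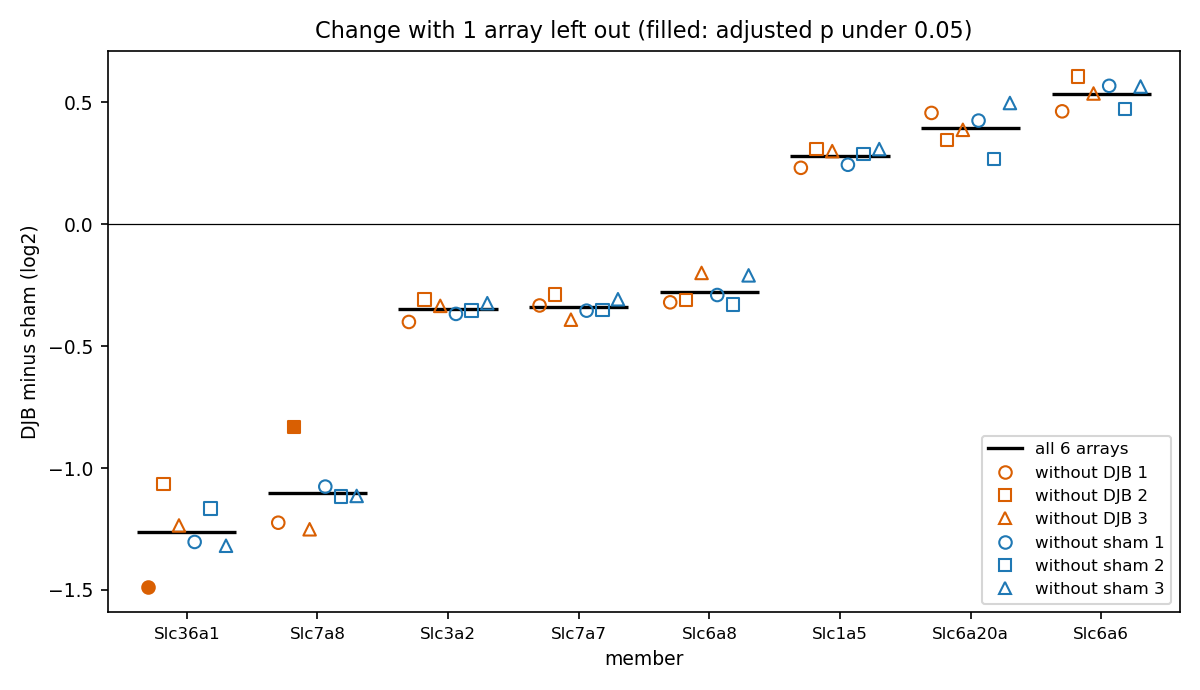
Difference between DJB and sham rats (log2, vertical axis) for 8 members (horizontal axis) with all 6 arrays (line) and with 1 array left out (symbols, orange for a DJB and blue for a sham array left out), filled where the adjusted p was under 0.05. Each member stays on its side of 0, and the filled symbols are Slc36a1 without DJB 1 and Slc7a8 without DJB 2.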

How the data were processed

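Ileum RNA of 3 DJB and 3 sham rats was measured on 1 array per rat. The authors deposited log2 expression values, made with RMA, per the submitters' processing notes, which corrects background, quantile normalises arrays and summarises probes. The table has 29214 rows, of which 15310 carry 1 gene symbol in the platform annotation, 323 several and 13581 none. The brightest row of each gene with 1 symbol was kept. All 55 members had the same symbol in RefSeq's gene table (GRCr8), which gave names and neighbours only.

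The log2 values were fitted as deposited with limma 3.58.1 in R 4.3.3 (lmFit, eBayes, no covariate, no filter), two-sided, with Benjamini-Hochberg adjustment over all 14506 genes. The fit was tested on simulated data. The members and lists were chosen with earlier results of these data known. Named genes were the members called or at an unadjusted p under 0.05, those of the lists for brush border uptake, basolateral exit and ATF4, and others by subfamily; of genes that are no members, up to 4 of lowest p in their list. Atf4 was added after its value was seen. Alternatives were a replicate block, repeated quantile normalisation, median centring, leaving out genes under 6, an intensity trend, averaging the rows of a gene, testing all rows, leaving out each array and, chosen after seeing the data, leaving out Slc7a6os. Figures were drawn with matplotlib 3.10.9.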

Additional observations from a re-analysis of the deposited data

How the results depend on the processing

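The number of genes called was 112, and it was 50 with a replicate block, 219 with genes under 6 left out, 295 with an intensity trend and 33 to 108 with 1 array left out. The 2 members called were both called with repeated quantile normalisation or median centring. They stayed called with rows averaged, which leaves member values unchanged because each member had 1 row. They also stayed called with Slc7a6os left out, which only took that gene from the count. Neither of those settings was a check of the calls. With genes under 6 left out 3 were called, and with an intensity trend 4. With a replicate block 0 were called (Slc36a1 at -1.26, adjusted p = 0.0815; Slc7a8 at -1.10, adjusted p = 0.0751), with 11 members at an unadjusted p under 0.05. With all rows tested 0 were called too, with 10 members at an unadjusted p under 0.05 (Slc36a1 at -1.26, adjusted p = 0.0590; Slc7a8 at -1.10, adjusted p = 0.0970). With 1 array left out, 0 or 1 were called. Slc36a1 lay between -1.49 and -1.07 and Slc7a8 between -1.25 and -0.83 in those fits. The median difference of the members stayed between 0.05 and 0.13 in every setting. That of the members at 6 or above was less steady, from -0.02 without sham 2 to 0.10 without sham 3.

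Same-numbered rats of the 2 groups correlated at 0.01, -0.12 and -0.15 in their deviations from the group means. Of the DJB rats, only DJB 1 correlated best with its own number, at 0.01. DJB 2 correlated best with sham 3, at 0.17, and DJB 3 with sham 2, at 0.11. The labels name no pairing, and 3 rats per group are too few to exclude one. Signs turned in 17 members, none of them called, whose differences lay within 0.37 of 0 with all arrays. With 1 array left out these were Slc1a1 (-0.059 to 0.15), Slc1a4 (-0.14 to 0.012), Slc1a7 (-0.10 to 0.15), Slc36a2 (-0.060 to 0.21), Slc38a7 (-0.082 to 0.17), Slc3a1 (-0.083 to 0.14), Slc43a1 (-0.10 to 0.061), Slc43a3 (-0.070 to 0.25), Slc6a17 (-0.014 to 0.088). The others were Slc6a19 (-0.15 to 0.11), Slc6a3 (-0.20 to 0.015), Slc6a4 (-0.10 to 0.11), Slc6a9 (-0.018 to 0.11), Slc7a1 (-0.086 to 0.0051), Slc7a15 (-0.73 to 0.061), Slc7a4 (-0.028 to 0.044) and Slc7a5 (-0.0079 to 0.15). After repeated quantile normalisation Slc1a7 was at -0.042, Slc6a17 at -0.00041 and Slc6a4 at -0.028, and after median centring Slc1a7 was at -0.019 and Slc6a4 at -0.023. The causes of these shifts were not tested.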
